A study of Mus musculus with 24 samples.

Results

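The posterior Hox genes measured here are 10 homeobox genes of the Hoxa, Hoxc and Hoxd clusters: Hoxa9, Hoxa10, Hoxa11, Hoxc8, Hoxc9, Hoxc10, Hoxd8, Hoxd9, Hoxd10 and Hoxd11. They were taken by symbol from the 47643 gene identifiers of the count files, and all 10 were found. The data were RNA-seq counts from sorted cells of the fourth lumbar dorsal root ganglion (L4 DRG), in 24 libraries of 100 GFP-positive cells. Both genotypes had 4 mice, 2 males (replicates 1 and 2) and 2 females (replicates 3 and 4), of 8 to 9 weeks of age and a mixed C57BL/6 and AJ strain, and each mouse gave 3 libraries. All mice carried Nav1.8-Cre and the green reporter Rosa26-ZsGreen. Control mice were Tsc2 flox/+ and Nav-Tsc2 mice were Tsc2 flox/null, so both had a floxed Tsc2 allele. Nav1.8-Cre acts in most nociceptors and in part of the myelinated sensory neurons, and control cells are heterozygous for Tsc2 after recombination. The ganglia lay on the uninjured side, 3 days after the other sciatic nerve was crushed.

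Hox genes encode transcription factors that give cells of the embryo their position along the head-to-tail axis. They lie in 4 clusters in the order of their domains, and genes with the same number in different clusters (paralogs) are related copies. Paralog groups 8 and 9 are known mainly from the thoracic level, group 10 from the lumbar level and group 11 from the sacral level, and adult neurons keep part of this pattern. TSC2 is a subunit of the complex that holds back the growth kinase mTORC1.

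Tsc2, the check of the labels, stood at 13.4, 24.7, 21.5 and 24.1 CPM (counts per 1000000 scaled counts of the mouse or library) in control replicates 1 to 4 and at 8.70, 8.51, 7.30 and 10.95 CPM in Nav-Tsc2 replicates 1 to 4. The groups did not overlap, and Tsc2 RNA was lower in Nav-Tsc2 mice (log2 fold change -1.24, SE 0.22, edgeR adjusted p = 0.00400). With other fits and subsets of mice, the adjusted p stayed under 0.05 in 17 of 19 alternatives and reached at most 0.0742. Libraries held between 8339220 and 34228180 counts on genes, and the 3 libraries of a mouse together between 47959617 and 61290435. The libraries' median correlation with the others of their genotype ranged from 0.841 to 0.963. A member at 0 counts in a mouse could still have been present at up to 0.0489 to 0.0626 CPM, the level that 3 counts make.

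Promoter sequences of RefSeq (GRCm38.p6) were matched by symbol for 7 of the 10 members. The 250 bases before the start of transcription are shown for Hoxd8, which was lower in Nav-Tsc2 mice, for Hoxd10, the member that varied most between Nav-Tsc2 mice, and for Hoxd1, the Hox gene outside the members with the largest fall. Capitals mark the letters CACGTG (an E-box, the site of basic helix-loop-helix factors).
Hoxd8, chr2:74704365-74704614 (+): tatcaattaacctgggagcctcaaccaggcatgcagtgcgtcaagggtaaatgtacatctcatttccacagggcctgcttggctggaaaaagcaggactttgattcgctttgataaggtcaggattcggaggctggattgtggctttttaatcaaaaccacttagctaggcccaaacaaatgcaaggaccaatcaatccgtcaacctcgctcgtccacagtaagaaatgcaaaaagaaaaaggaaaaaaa
Hoxd10, chr2:74691641-74691890 (+): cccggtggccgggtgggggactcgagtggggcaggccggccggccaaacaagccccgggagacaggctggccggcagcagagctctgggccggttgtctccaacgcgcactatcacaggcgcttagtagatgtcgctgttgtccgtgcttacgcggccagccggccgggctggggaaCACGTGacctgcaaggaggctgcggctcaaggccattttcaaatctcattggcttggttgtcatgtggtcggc
Hoxd1, chr2:74762730-74762979 (+): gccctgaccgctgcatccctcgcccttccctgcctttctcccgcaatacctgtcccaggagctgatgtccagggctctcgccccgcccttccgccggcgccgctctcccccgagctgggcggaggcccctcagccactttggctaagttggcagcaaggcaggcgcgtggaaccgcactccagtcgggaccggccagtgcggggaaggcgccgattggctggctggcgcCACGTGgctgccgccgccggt
The search covered both strands for TGATNNAT (the joint site of Hox and Pbx proteins), TTTAT (the Cdx site), CACGTG and TATAAA. None of the 4 was found in the Hoxd8 window, where GC content was 44.4% against a median of 52.4% over 32851 promoter windows of the same length. The E-box began at position -73 of Hoxd10 and at -21 of Hoxd1, counted back from the start of transcription, and 6.02% of all windows held one. Among the member windows not shown, promoter 2 of Hoxd11 held an E-box at -96 and TGATNNAT at -73. TTTAT was in promoter 1 of Hoxd11 and in promoters 1 and 2 of Hoxa10, the last also with TATAAA. The windows of Hoxa9, Hoxa11 and Hoxd9 held none of these letters. TGATNNAT was in 7.68%, TTTAT in 37.3% and TATAAA in 12.4% of all windows. Every TATAAA match also holds a TTTAT match on the other strand, so the windows with TATAAA are all among those with TTTAT.

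The Hox clusters also hold the genes of miR-196, a family of microRNAs that binds Hox messages. The mature 5p forms share 1 seed (bases 2 to 8, in capitals), and the matching letters ACTACCT were searched in the longest annotated 3′ UTR of each gene (GENCODE M21, GRCm38). They were found in Hoxc8, at 2 places, and in Hoxa9, at 1 place, and in no other member. Of 21022 genes with a 3′ UTR, 6.10% held the letters. Each window is shown with the match in capitals.
miR-196a-5p: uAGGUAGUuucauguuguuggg
miR-196b-5p: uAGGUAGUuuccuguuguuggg
Hoxa9, chr6:52223900-52223922 (-): gcaaaaggaaagaaaACTACCTt
Hoxc8, chr15:102992975-102992997 (+): acactcacaactctaACTACCTg
Hoxc8, chr15:102993732-102993754 (+): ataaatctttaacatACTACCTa
The gene of miR-196b lies inside the Hoxa9 locus, and 1.52% of the Hoxa9 exon bases belong to it as well. No count fell on the Mir196b row in any library. However, 100% of the Mir196b exon bases are shared, and reads on shared bases are left out when genes cannot be told apart. The lack of counts therefore cannot show whether miR-196b was present. Hoxc8 and Hoxa9 did not pass the genotype test, as described with their values.

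Levels of different genes were compared per length, as RPKM (CPM divided by exon length in kilobases). In control mice the order of the members was Hoxa10, Hoxd8, Hoxc10, Hoxa9, Hoxc9, Hoxd9, Hoxc8, Hoxd10, Hoxd11 and Hoxa11. Hoxa10 stood at 21.2 ± 4.10 RPKM (SD, n = 4 mice), Hoxd8 at 16.2 ± 3.02, Hoxc10 at 9.31 ± 1.98 and Hoxa9 at 6.23 ± 0.889. The ranges of Hoxa10 and Hoxd8 overlapped between mice, whereas those of Hoxd8 and Hoxc10, and of Hoxc10 and Hoxa9, did not. With exon length not shared with other genes, the highest control value of Hoxc10 (13.2 RPKM) exceeded the lowest of Hoxd8 (12.6 RPKM), so these 2 overlapped as well. Hoxc9 (2.26 ± 0.352 RPKM), Hoxd9 (2.00 ± 0.623) and Hoxc8 (1.29 ± 0.335) formed a lower group, in which neighbours overlapped. Hoxd10 followed at 0.563 ± 0.134 RPKM, below the lowest Hoxc8 value.

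In Nav-Tsc2 mice Hoxa10 was again the highest member (19.1 ± 1.00 RPKM), and Hoxc10 (11.4 ± 2.03) came before Hoxd8 (7.30 ± 1.053), without overlap between these neighbours. Hoxd8 then overlapped with Hoxa9 (5.72 ± 0.482 RPKM), and Hoxc9 came next at 4.18 ± 0.983. Hoxd10 (2.05 ± 1.26 RPKM), Hoxc8 (1.66 ± 0.160) and Hoxd9 (1.53 ± 0.662) overlapped as neighbours. Hoxa10 held rank 1 among all 39 Hox genes in both genotypes, while Hoxd8 held rank 2 in control and rank 5 in Nav-Tsc2 mice.

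**Figure D1:**
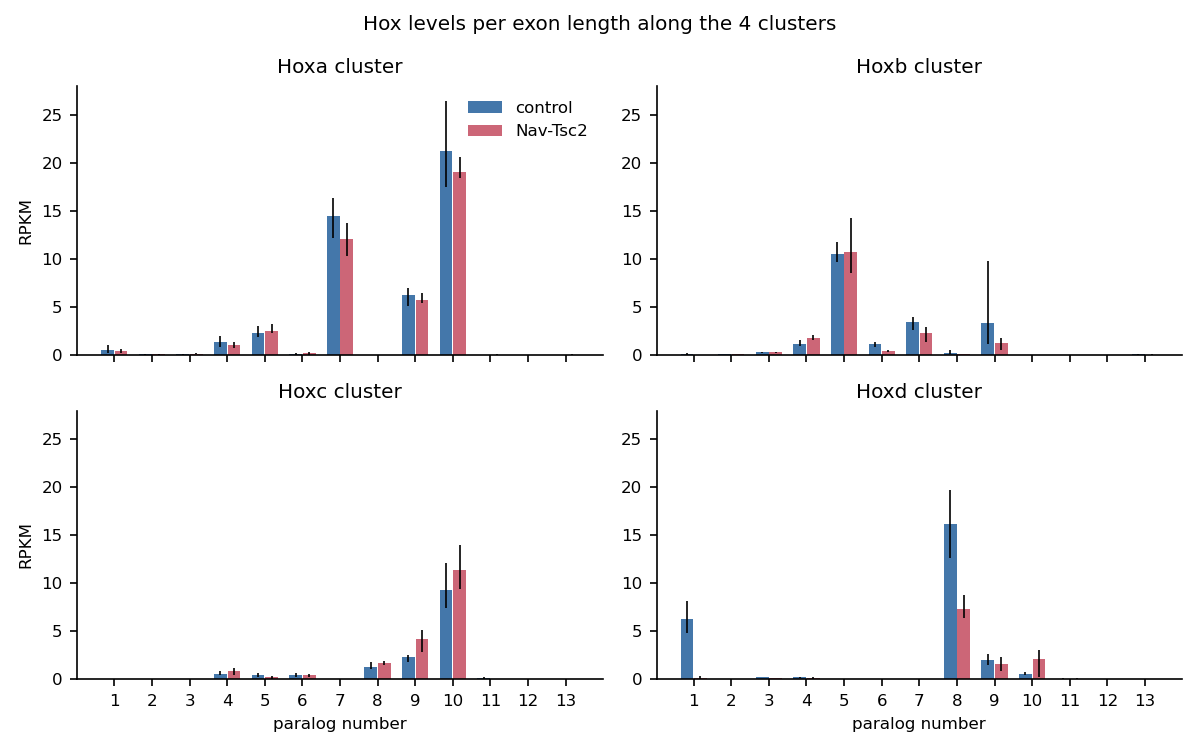
Level of each Hox gene in RPKM (vertical axis, from 0) against its paralog number, in 1 panel per cluster; bars are means of 4 mice, blue for control and red for Nav-Tsc2, and lines run from the lowest to the highest mouse. The members Hoxa10, Hoxc10 and Hoxd8 rise above their neighbours, groups 11 to 13 lie at 0 or close to it, and the Hoxd8 and Hoxd1 bars are lower in Nav-Tsc2 mice.

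Levels dropped from group 10 to group 11 in every cluster that holds both. Hoxa11, a gene of the sacral level, had 0 counts in all 12 control libraries, out of 220564026 counts on genes, which allows up to 0.0136 CPM. It had 1 count in the Nav-Tsc2 libraries. Hoxd11 was found in 3 of 12 control and 3 of 12 Nav-Tsc2 libraries, with 21 and 36 counts in all. Control replicates 1 to 4 stood at 0, 0.341, 0.0362 and 0.0201 CPM and Nav-Tsc2 replicates 1 to 4 at 0.350, 0, 0.229 and 0.0846 CPM, so the groups overlapped. Both genes were below the filter on low counts and were not tested. Of the 9 Hox genes of groups 11 to 13, none had a mean above 0.0676 RPKM in either genotype. Hoxa11 shares 35.0% of its exon bases with Hoxa11os on the opposite strand, which had no count, and Hoxd11 shares 10.8% and Hoxd10 5.73% with Gm28309, which also had none. Gm28309 itself shares 89.7% and Hoxa11os 47.6% of its exon bases with other genes, which limits what their absence of counts can show. Reads on shared bases are left out when genes cannot be told apart, so these levels could be lower than the true ones.

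The genotype comparison asked whether loss of Tsc2 in Nav1.8-lineage neurons changed the Hox pattern. A gene was called where edgeR's adjusted p was under 0.05 and the log2 fold change beyond 0.5 in either direction. Of the 8 members that passed the filter on low counts, Hoxd8 fell and Hoxc9 rose, and 6 were not called. Over all 17178 genes tested 17.1% were called, 8.00% lower and 9.12% higher, so the 2 of 8 give no sign that the members were called more often than other genes. The groups did not overlap in the same 2 members, against 26.9% of all genes. The median log2 fold change was 0.08 for the 8 members and 0.01 for all genes, and 4 of the 8 were positive. In pooled sorted cells, fewer cells of a type and less RNA per cell cannot be told apart.

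Hoxd8 belongs to the Hoxd cluster on chromosome 2 (74704615 to 74707933, plus strand, GRCm38). It stood at 47.2, 41.7, 34.6 and 54.1 CPM in control replicates 1 to 4 and at 18.5, 17.6, 24.1 and 19.9 CPM in Nav-Tsc2 replicates 1 to 4. Every Nav-Tsc2 mouse was below every control mouse, as was the case for 12.3% of all genes tested. The mean fell from 44.4 ± 8.29 to 20.0 ± 2.89 CPM (SD, n = 4 mice), to 0.451 times the control mean (log2 fold change -1.15, SE 0.16, edgeR adjusted p = 0.00128). The call held in each of the fits that left out 1 mouse and was lost with the 2 females of each genotype alone (log2 fold change -1.01, adjusted p = 0.112). Among single libraries, 11 of 12 control libraries lay above the highest Nav-Tsc2 library (26.5 CPM). The exception was a library of control replicate 3, at 22.3 CPM.

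Hoxc9, known for setting the thoracic fate of spinal motor neurons, lies on chromosome 15 (102976439 to 102985099, plus strand). Control replicates 1 to 4 stood at 5.98, 5.55, 6.15 and 4.26 CPM and Nav-Tsc2 replicates 1 to 4 at 10.9, 10.4, 6.86 and 12.5 CPM. All Nav-Tsc2 mice were above all control mice, with replicate 3 closest to them, and 14.6% of all genes tested had this order. The mean rose from 5.48 ± 0.857 to 10.2 ± 2.39 CPM (SD, n = 4 mice), to 1.85 times the control mean (log2 fold change 0.89, SE 0.24, edgeR adjusted p = 0.0251). The call was lost with the replicate number as a block (adjusted p = 0.0834) and without control replicate 4 (0.0537) or Nav-Tsc2 replicate 1 (0.0745), 2 (0.0675) or 4 (0.0811). It was also lost with the 2 males (0.0784) or the 2 females (0.322) of each genotype alone. The log2 fold change stayed between 0.77 and 1.04 in all 19 alternatives.

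**Figure D2:**
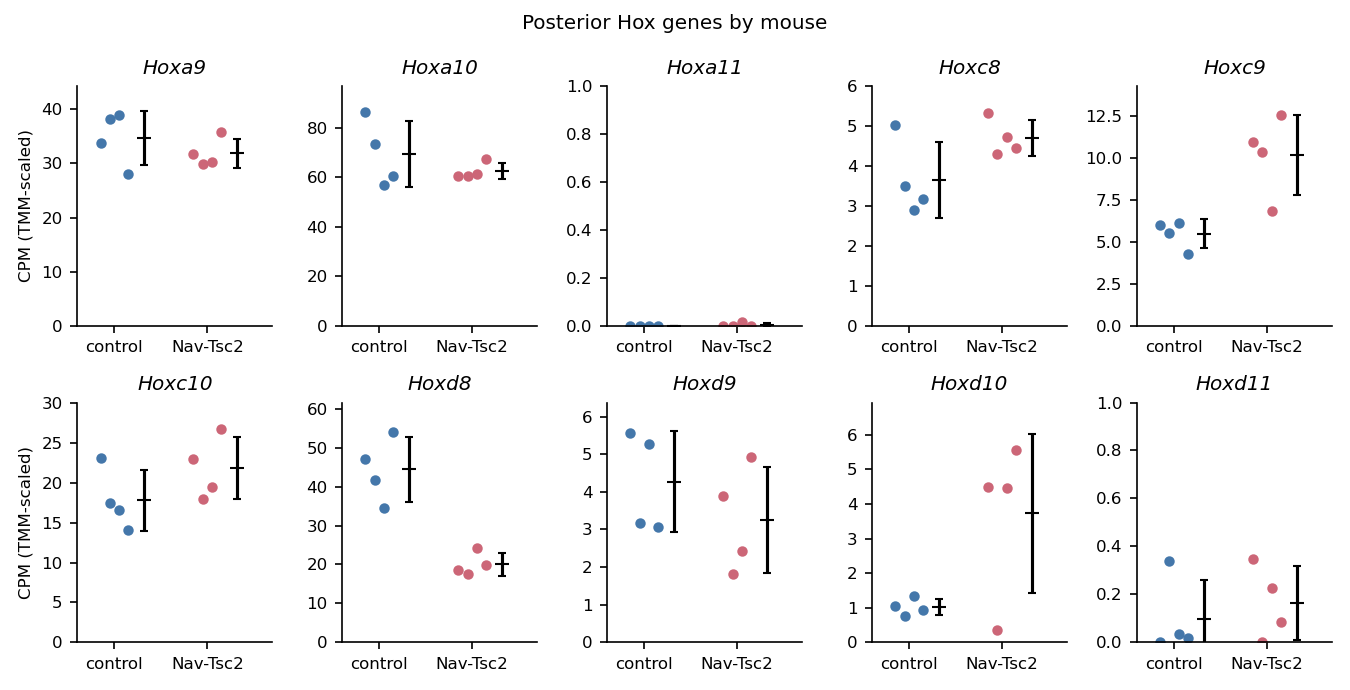
Level of the 10 members in CPM (vertical axes, each from 0) in 4 control mice (blue) and 4 Nav-Tsc2 mice (red), with replicates 1 to 4 from left to right and the mean ± SD in black. The groups stand apart in Hoxd8 and Hoxc9, Nav-Tsc2 replicate 2 lies apart from the other Nav-Tsc2 mice in Hoxd10, and Hoxa11 and Hoxd11 lie near 0.

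The neighbours of Hoxc9 on chromosome 15 were not called. Hoxc8 (102990607 to 102994111) stood at 5.03, 3.50, 2.91 and 3.17 CPM in control and at 5.33, 4.30, 4.72 and 4.45 CPM in Nav-Tsc2 replicates 1 to 4 (log2 fold change 0.36, SE 0.26, edgeR adjusted p = 0.381). Control replicate 1 alone lay within the Nav-Tsc2 range. Hoxc10 (102966796 to 102971893), a gene of lumbar neurons, stood at 23.0, 17.4, 16.5 and 14.1 CPM in control and at 23.0, 18.0, 19.5 and 26.7 CPM in Nav-Tsc2 mice (log2 fold change 0.29, SE 0.19, adjusted p = 0.316). Its groups overlapped, and 8.70% of its exon bases are shared with a Hoxc5 transcript.

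The Hoxa members on chromosome 6 showed no difference larger than the spread between mice. Hoxa10 (52231197 to 52240854, minus strand), which acts in the lumbar pattern together with Hoxc10 and Hoxd10, stood at 86.4, 73.3, 57.0 and 60.5 CPM in control and at 60.6, 60.3, 61.4 and 67.3 CPM in Nav-Tsc2 replicates 1 to 4. Its log2 fold change was -0.15 (SE 0.13, edgeR adjusted p = 0.481). The highest control mice were the 2 males. Hoxa9 (52223100 to 52231089), the group 9 gene of this cluster, stood at 33.8, 38.1, 38.9 and 28.1 CPM in control and at 31.7, 29.8, 30.3 and 35.7 CPM in Nav-Tsc2 mice (log2 fold change -0.12, SE 0.13, adjusted p = 0.563). In both genes every Nav-Tsc2 mouse lay inside the control range.

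Hoxd10 and Hoxd9 lie upstream of Hoxd8 on chromosome 2. Hoxd10 (74691924 to 74695105), known for its part in lumbar motor neurons, stood at 1.051, 0.757, 1.34 and 0.944 CPM in control replicates 1 to 4. In Nav-Tsc2 replicates 1, 3 and 4 it stood at 4.48, 4.48 and 5.57 CPM, above all control mice, and in replicate 2 at 0.372 CPM, below them. It was not called (log2 fold change 1.86, SE 0.67, edgeR adjusted p = 0.0785). Without Nav-Tsc2 replicate 2 it was called (log2 fold change 2.24, adjusted p = 0.00512), as it was with DESeq2 on all mice (adjusted p = 0.0208), which called 21.3% of all genes.

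Hoxd9 (74697727 to 74700208) stood at 5.57, 3.18, 5.26 and 3.07 CPM in control and at 3.89, 1.804, 2.42 and 4.93 CPM in Nav-Tsc2 mice. The groups overlapped (log2 fold change -0.39, SE 0.39, edgeR adjusted p = 0.532).

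**Figure D3:**
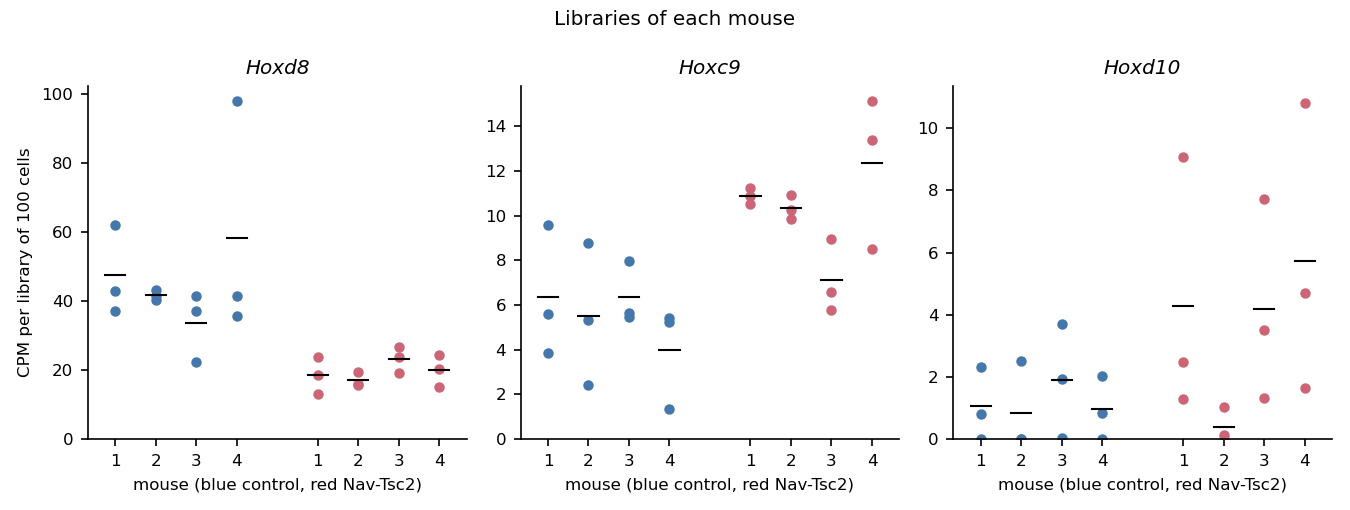
Level of Hoxd8, Hoxc9 and Hoxd10 in CPM (vertical axes, each from 0) in the 3 libraries of each mouse (horizontal axis, blue control and red Nav-Tsc2); black lines are the means of the 3 libraries. In Hoxd8, 11 of 12 control libraries lie above every Nav-Tsc2 library, in Hoxc9, 8 of 12 Nav-Tsc2 libraries lie above every control library, and Hoxd10 ranges from 0 to 10.8 CPM.

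The libraries of a mouse showed how far each member varied between samples of 100 cells. Cell sampling, amplification and counting noise were not separated in this spread, which was larger at lower levels over all genes. The SD of log2(CPM + 0.5) between the libraries of a mouse was 0.21 for Hoxa10, 0.34 for Hoxa9 and 0.41 for Hoxd8. It was 0.84 for Hoxd9 and 1.25 for Hoxd10. Hoxd10 was at 0 in 4 of 12 control libraries and in 1 of 12 Nav-Tsc2 libraries, and reached 3.71 CPM in control and 10.8 CPM in Nav-Tsc2 libraries. Hoxc9 was found in all 24 libraries, at 1.34 to 9.60 CPM in control and 5.79 to 15.1 CPM in Nav-Tsc2.

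In all 8 tested members the libraries of a mouse varied less in Nav-Tsc2 than in control, for example at 0.26 against 0.72 for Hoxc9 and 0.20 against 0.43 for Hoxa9. The same direction held over all genes, where the median SD was 0.954 in control and 0.602 in Nav-Tsc2 for 5177 genes of 1 to 10 CPM, and 0.418 and 0.271 for 6484 genes of 10 to 100 CPM.

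Ratios of paralogs within a mouse do not depend on the scaling of its counts. The 7 ratios of CPM formed in groups 8, 9 and 10 hold a Hoxc gene in 5 cases by construction, and how often ratios of other gene pairs overlap was not computed. Hoxc8 over Hoxd8 stood at 0.107, 0.0841, 0.0842 and 0.0586 in control and at 0.288, 0.245, 0.196 and 0.223 in Nav-Tsc2 replicates 1 to 4. Hoxa9 over Hoxc9 averaged 6.36 in control and 3.26 in Nav-Tsc2 mice, Hoxc9 over Hoxd9 1.34 and 3.48, and Hoxa10 over Hoxc10 3.92 and 2.92, and the genotypes did not overlap in these 4 ratios. They overlapped in Hoxc10 over Hoxd10, Hoxa9 over Hoxd9 and Hoxa10 over Hoxd10. The ratios are a description, since they reuse the values of the genotype test.

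The members together made up 55.8% ± 5.39 of the summed RPKM of all Hox genes in control and 60.5% ± 6.12 in Nav-Tsc2 mice (SD, n = 4 mice), with overlapping ranges. Within this sum the Hoxc members held 10.0% to 14.9% in control and 16.7% to 23.1% in Nav-Tsc2 mice, without overlap. The Hoxd members held 14.7% to 21.2% and 8.54% to 14.1%, also without overlap. The Hoxa members overlapped, at 23.0% to 29.8% and 27.3% to 30.1%. Shares of a sum depend on each other. Mean Hoxd8 was 16.2 RPKM in control and 7.30 RPKM in Nav-Tsc2 mice, and mean Hoxd1 6.30 and 0.0874 RPKM. Such falls raise the share of every other Hox gene. The shares reuse the values of the genotype test, and how often shares of other gene sets overlap was not computed.

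The genotype effect was compared between males and females with the interaction of genotype and sex. None of the 8 tested members passed, with adjusted p between 0.439 and 0.999, and 0.00582% of all genes, 1 gene, did. At an unadjusted p under 0.05 it was 9.22% of all genes and 1 member, Hoxa10 (p = 0.0199). DESeq2 likewise found 0 members at an adjusted p and 1 at an unadjusted p under 0.05. Hoxa10 averaged 79.9 CPM in control and 60.5 CPM in Nav-Tsc2 males, and 58.7 and 64.3 CPM in females. Hoxd8 was lower in Nav-Tsc2 mice of both sexes, at 44.4 and 18.0 CPM in males and 44.4 and 22.0 CPM in females. Hoxc9 was higher in both, at 5.76 and 10.6 CPM in males and 5.204 and 9.69 CPM in females.

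Of the 29 other Hox genes, 18 were tested and 2 were called, both lower, where 8.00% of all genes tested were called lower. Hoxd1, a gene known from nociceptors that depend on nerve growth factor, lies at the other end of the Hoxd cluster. It stood at 9.01, 13.9, 8.90 and 15.1 CPM in control and at 0.0411, 0.0531, 0.523 and 0.0339 CPM in Nav-Tsc2 replicates 1 to 4, the last group with 2, 3, 32 and 2 counts. Its log2 fold change was -6.12 (SE 0.82, edgeR adjusted p = 0.000954). It was -8.03 without Nav-Tsc2 replicate 3 (adjusted p = 5.92e-05), and the call was lost with females alone (-5.42, adjusted p = 0.0683). Haglr, a noncoding RNA on the minus strand (chr2:74748422-74762896) whose annotated start lies inside the Hoxd1 window shown, was the called gene among 46 other annotated genes inside the clusters, of which 11 were tested. It averaged 8.12 ± 0.577 CPM in control and 1.602 ± 0.643 CPM in Nav-Tsc2 mice (SD, n = 4 mice, log2 fold change -2.34, SE 0.31, adjusted p = 0.000954).

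Hoxb6 averaged 2.20 and 0.688 CPM and was called lower (log2 fold change -1.67, SE 0.40, edgeR adjusted p = 0.0164), a call lost with the replicate block (adjusted p = 0.0606) and without Nav-Tsc2 replicate 1 (0.0543) or 2 (0.0532), and with males (0.116) or females (0.272) alone. The other Hox genes with at least 1 RPKM were not called. Among them Hoxa7 stood at 14.4 and 12.1 RPKM, Hoxb5 at 10.5 and 10.7, Hoxb7 at 3.43 and 2.23, Hoxb9 at 3.33 and 1.24, Hoxa5 at 2.21 and 2.49, Hoxb4 at 1.14 and 1.72 and Hoxa4 at 1.30 and 1.02 RPKM, in control and Nav-Tsc2 mice. The control mean of Hoxb9 rested on replicate 2, at 25.01 CPM against 2.71 to 3.73 CPM in the other control mice. By cluster, 2 of 6 tested Hoxd genes and 1 of 7 Hoxb genes were called lower. In Hoxc 1 of 6 tested genes was called higher, and the 7 tested Hoxa genes were not called. For comparison, falls made up 8.00% and rises 9.12% of the full set of 17178 genes. With so few genes per cluster, a departure from these shares was not tested.

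**Figure D4:**
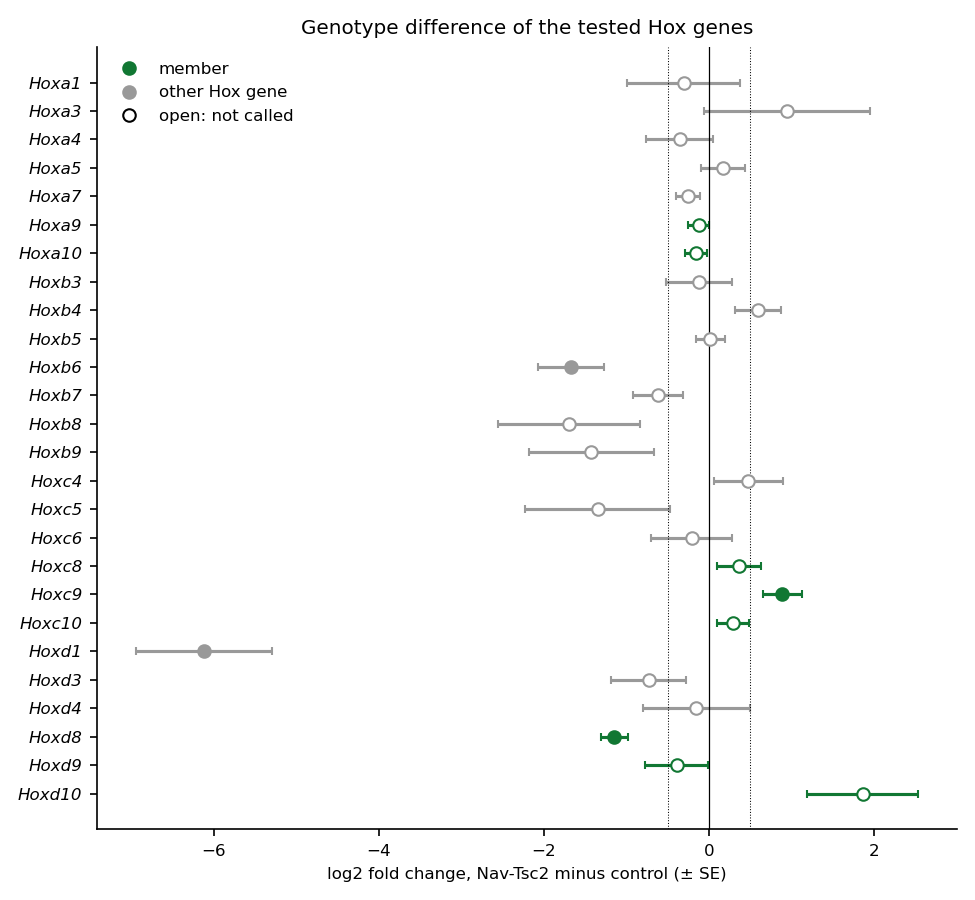
Log2 fold change ± SE, Nav-Tsc2 minus control (horizontal axis), of the Hox genes tested, in cluster order; green points are members, grey points other Hox genes, filled points were called, and dotted lines stand at -0.5 and 0.5. Hoxd1 is farthest to the left at -6.12, Hoxd8 and Hoxb6 are the other called genes on the left and Hoxc9 is the called gene on the right.

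Hox proteins bind DNA with partners of the TALE class, and their genes are kept on or off by Polycomb and Trithorax proteins. The counts called in these lists stand beside 17.1% of all genes tested, 8.00% lower and 9.12% higher. Whether a list differs from these shares was not tested. Of 9 TALE genes, all tested, Pbx4 averaged 4.62 and 2.03 CPM in control and Nav-Tsc2 mice and fell (log2 fold change -1.19, edgeR adjusted p = 0.0381), and Pknox1, which encodes Prep1, averaged 5.98 and 10.2 CPM and rose (0.77, 0.0457). Both calls were lost with the replicate block (0.0989 and 0.0783) and without any 1 mouse other than control replicate 3. The median log2 fold change of these 9 was -0.29. Of 28 tested Polycomb genes, Pcgf3 (log2 fold change 1.04, adjusted p = 0.000416) and Pcgf2 (1.30, 0.0284), subunits of Polycomb repressive complex 1, rose and Jarid2, a partner of the second complex, fell (-0.52, 0.0259), with a median of 0.19. The calls of Pcgf2 (0.072) and Jarid2 (0.0831) were lost with the replicate block, and Pcgf2 kept its call in 12 and Jarid2 in 9 of 19 alternatives. Of 11 tested genes of Trithorax proteins and H3K27 demethylases, Men1 (1.19, 0.000566) and Kmt2b (0.84, 0.0107), which act in a histone H3K4 methyltransferase complex, rose. Men1 kept its call in 18 and Kmt2b in 17 of 19 alternatives, and the median of the 11 tested genes was -0.12.

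Among 7 tested genes of the signals that set Hox domains in the embryo, 2 fell, where 8.00% of all genes tested were called lower. The share in so short a list was not tested. Gdf11, a growth factor that sets where posterior Hox genes begin, averaged 59.8 and 32.5 CPM (log2 fold change -0.88, edgeR adjusted p = 0.00979). Rxrg, a retinoid X receptor, averaged 42.3 and 8.94 CPM (log2 fold change -2.24, adjusted p = 0.0088). Gdf11 and Rxrg each kept the call in 18 of 19 alternatives. Cdx2 was at 0 in all mice.

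Markers of other cells were low and moved with genotype in part, where 9.12% of all genes tested were called higher and 8.00% lower. The summed level of 6 endothelial genes was 0.326 to 1.85 CPM in control and 7.73 to 20.1 CPM in Nav-Tsc2 mice, and the 3 tested were called higher. The rise lay mainly in Flt1, which averaged 0.0338 CPM in control and 8.56 CPM in Nav-Tsc2 mice, with Ly6c1 (0.0182 and 2.63) and Kdr (0.358 and 1.76). The others, not tested, did not follow in the same way. Pecam1 averaged 0.422 and 0.315 CPM, Cdh5 0.0511 and 0.115 CPM and Cldn5 0.0151 and 0.0239 CPM. The 6 macrophage genes summed to 1.23 to 4.51 and 9.73 to 18.8 CPM (1 of 5 tested called higher) and the 6 pericyte and smooth muscle genes to 4.39 to 45.6 and 19.0 to 149 CPM (2 of 4 called higher). Among macrophage genes, Cx3cr1 was called (means 0.0328 and 5.71 CPM), while C1qa, not tested, averaged 0.0201 and 0.0212 CPM. Among pericyte and smooth muscle genes, Pdgfrb (6.89 and 14.8 CPM) and Acta2 (0.131 and 7.25) were called. Rgs5 (10.7 and 54.0) was not called, and Myh11 (0.246 and 0.0294) and Kcnj8 (0 and 0.0103) were not tested. The 13 genes of satellite glia and Schwann cells summed to 621 to 903 and 613 to 853 CPM, with none of 12 called and Pmp2 at 0. The 6 fibroblast genes summed to 73.1 to 236 and 121 to 196 CPM and the 6 genes of large neurons to 561 to 996 and 481 to 753 CPM, with none called. The 4 red blood cell genes summed to 1.09 to 1.93 and 0.392 to 0.672 CPM (none of 2 called, Hbb-bt at 0). The 12 neuronal and nociceptor genes summed to 11825 to 13478 and 14375 to 17154 CPM (1 called higher and 2 lower). The part of these cells in the differences of Hoxc9, Hoxd8 and Hoxd1 was not tested.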

How the data were processed

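RNA of 24 libraries of 100 sorted cells was amplified with a SMARTer Ultra Low kit, which does not mark strand. Per the labels, the authors aligned reads to mm10 with STAR and made counts with HTSeq. The deposited counts are not normalized. Alignments to more than 1 place made up a median of 39.6%, reads on no gene 7.79% and ambiguous reads 2.30% of all counts of a library. These counts were left out. The 8 columns of another deposited table, which holds the authors' normalized values per mouse and their DESeq2 comparison, were not used.

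The 3 libraries of a mouse were summed, and edgeR 4.0.16 (R 4.3.3) tested the sums, with TMM scaling, filterByExpr and Benjamini-Hochberg adjustment over 17178 genes. SE was taken from F, as the absolute log2 fold change over its square root. CPM are TMM-scaled, and RPKM divide them by union exon length of GENCODE M21. limma 3.58.1 and DESeq2 1.42.0 served alternatives, listed with their effect in the closing section. The pseudocount of the SDs was 0.5 CPM. No molecular identifiers were used, so limits from counts cover counting error only.

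The members, the gene lists, the tests and the alternatives were chosen with earlier results of these data known. The genes named were all 10 members, other Hox genes with at least 1 RPKM or called, called genes of the other lists, cluster genes called or sharing exons with a member, and Tsc2. Some marker genes were also named, to show what the sum of a marker list rested on. Libraries of a mouse differed far beyond counting noise (smallest chi-square per gene 18.0), so none was a copy.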

Additional observations from a re-analysis of the deposited data

Results flagged for a closer look

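Each group of 4 mice was examined for a mouse far from the other 3, in 39 groups of members and named Hox genes, where chance gives about 1.95. Hoxa10 stood at 67.3 CPM in Nav-Tsc2 replicate 4, against 60.3 to 61.4 CPM in the other Nav-Tsc2 mice. Hoxa11 stood at 0.0163 CPM in Nav-Tsc2 replicate 3, which was 1 count, and at 0 in the others. Hoxd11 stood at 0.341 CPM in control replicate 2, where 18 of its 21 control counts lay in 1 library. Hoxd1 stood at 0.523 CPM in Nav-Tsc2 replicate 3, above the other Nav-Tsc2 mice and far below all control mice. Outside the members, Hoxa5 stood at 5.96 CPM in Nav-Tsc2 replicate 3 and Hoxb9 at 25.01 CPM in control replicate 2, where its 3 libraries ranged from 5.32 to 49.8 CPM.

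Hoxa10 was lower in both Nav-Tsc2 males than in both control males, and higher in both Nav-Tsc2 females than in both control females. The interaction of genotype and sex was 0.53 on the log2 scale, female minus male (edgeR p = 0.0199, adjusted p = 0.439), so the difference between the sexes did not pass the test.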

How the results depend on the processing

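The number of called members, 2 in the reported fit, was 3 with DESeq2, 1 with the replicate block, 1 with males only and 0 with females only, and leaving out 1 mouse gave 1 to 2. With females only, 546 genes were called in all against 2941, and without each mouse 2145 to 3502. Genes that differed between the sexes numbered 316 with DESeq2 and 618 with no low-count filter, against 1. The Hoxa10 log2 fold change turned to 0.13 with females only (adjusted p = 0.669). The cause of these changes was not tested. Hoxd8 kept its call in 18 of 19 alternatives, with log2 fold changes between -1.32 and -1.01, and Hoxc9 in 12 of 19. Hoxd10 was called in 2 of 19. No alternative changed the calls of Hoxa9, Hoxa10, Hoxc8, Hoxc10 and Hoxd9. The median of all genes moved beyond 0.1 only with 24 libraries and the mouse as a random effect (0.141), where 1339 genes were called lower and 2705 higher. With the replicate block 2445 genes were called. Deviations of mice with the same number correlated at 0.101, 0.121, 0.0341 and 0.124 over 8445 genes at a pseudocount of 0.5 CPM, and at 0.184, 0.185, 0.108 and 0.199 with a prior count of 2, so whether the numbers pair the mice depended on this choice, and not every mouse correlated best with its own number. In the control order 5 pairs of neighbours did not overlap, and 4 with exon length not shared with other genes, where Hoxd8 and Hoxc10 overlapped. At the depth of a mouse, a level under 0.0489 to 0.0626 CPM could not be told from 0.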
